A study of Sus scrofa with 6 samples.

Results

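Axon guidance and cell adhesion genes were compared between the embryonic pig cortex of day 80 (E80), when its primary folds have appeared, and that of day 60 (E60), when its surface is still smooth. Probe sets were taken by gene symbol, as those that carry exactly 1 symbol of the semaphorin, plexin, neuropilin, ephrin, Eph, netrin, UNC5, SLIT, ROBO, cadherin, protocadherin, NCAM, L1, contactin, neurexin, neuroligin, CADM, IGSF, LRRTM, SLITRK, integrin or related families (1 plexin was left out). This gave 60 probe sets for 37 genes, of 6765 different symbols on the array. Each gene was read on its brightest probe set, the one with the highest mean log2 signal over the 6 arrays, and 21 of the 37 genes have only 1. The symbols UNC50, a membrane protein of the nucleus and the Golgi, and ITGB1BP2, the muscle protein melusin that binds integrin beta 1, match the spelling of the families but are neither guidance nor adhesion molecules. SLIT2, PCDH15 and PCDH18 have no probe set under that single symbol in the annotation used here. The study reports each of them as changed past its fold threshold on these arrays, with the SLIT raised and both protocadherins lowered. SLIT2, PCDH15 and PCDH18 are not among the 37 genes, and no count given here covers them.

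Growing axons are steered by cues that attract or repel the growth cone. Netrins, semaphorins, ephrins and SLITs are the cues, and UNC5, plexins with neuropilins, Eph receptors and ROBOs are their main receptors. Cadherins and protocadherins join cells that carry the same molecule, proteins of the immunoglobulin (Ig) superfamily bind each other between neighbouring cells, and integrins, pairs of an alpha and a beta chain, hold cells to the extracellular matrix. In the developing cortex these families take part in the anchoring of radial glia, the migration of neurons, the growth of fibre tracts and the first synapses.

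RNA from the cortex of 3 embryos at E80 and of 3 at E60 was hybridised to the Affymetrix Pig Genome Array, 1 array per embryo, and no treatment, strain or genotype is named for either day. The series' description speaks of 3 litters without naming the litter of each embryo, so litter and day cannot be told apart. The values are MAS5 signals, which have no unit and are scaled to a common level on each array. They can be compared between arrays for 1 probe set, but not between probe sets.

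The measured neuronal markers lay above the median signal of all probe sets on all 6 arrays. The 6 that were measured of 10 listed, MAP2, STMN2 and SNAP25 among them, had summed signals of 12657 to 13398 at E80 and 10442 to 11240 at E60. Of the 6, 4 lay above E60 on all 3 arrays of E80, against 12.8% of all genes. SNAP25 alone passed (log2 change 0.46, adjusted p = 0.0342 from limma), a call that was lost when any 1 array was omitted. Of the 7 measured astrocyte markers of 8 listed, 5 rose at E80 (GFAP, ALDOC, APOE, NDRG2 and CLU), against 1.49% of all genes. Of these calls 0 to 2 were left when any 1 array was omitted, and 0 without the intensity trend of the fit. S100B (log2 difference 0.71) and GJA1 (-0.13) did not pass. E80 replicate 3 stood apart in the choroid plexus marker transthyretin (TTR), with a signal of 4475, against 15.1 and 6.25 on the other arrays of E80 and 1.47 to 3.70 at E60. It was the highest array of its day for 5 of the 6 measured choroid plexus markers of 10 listed. The marker F5 was instead highest on E80 replicate 1 (118, 64.1 and 108 at E80, against 21.5 to 23.6 at E60). F5 alone of the 6 passed (log2 change 2.05, adjusted p = 0.0159 from limma), but not without the intensity trend (0.125). The median log2 difference of all 23999 probe sets tested was -0.05, and it was 0.06 after the array medians were made equal, so differences of about that size have no direction of their own. In bulk tissue fewer cells of a type and less RNA per cell cannot be told apart.

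None of the 37 genes passed the test between E80 and E60. In limma, with p adjusted over the 23999 probe sets by the Benjamini-Hochberg method, the smallest adjusted p among them was 0.0737, for the integrin ITGB1, while 1.95% of all probe sets and 2.54% of the brightest probe sets of all 6765 genes passed. With array weights 1 of the 37 genes passed, ITGB1, and so did 1169 of the 23999 probe sets, against 467 without weights. In the fit without weights 4 of the 37 genes (10.8%) had an unadjusted p under 0.05, against 20.7% of all genes. Of these 4, 1 was higher at E80 (ITGAM, against a background of 10.1% of all genes) and 3 were lower (ITGB1, CDH5 and EFNB2, against 10.6%). On 5 of the 37 genes (13.5%) the arrays of both days did not overlap, against 27.5% of all genes. These were ITGAM, NRP2 and CDH24, higher at E80 (12.8% of all genes), and ITGB1 and ITGA2B, lower at E80 (14.7% of all genes). Over all 60 probe sets none passed, 8 had an unadjusted p under 0.05 (18% of all probe sets) and 9 did not overlap (23.6% of all probe sets). The log2 difference, E80 minus E60, lay above 0 for 19 genes and below 0 for 18, with a median of 0.02 and a range of -0.76 to 1.58. The study's 3-fold rule, taken here as a ratio of at least 3 between the day means of the log2 signals and no shared range, was met by none of the 37 genes, against 0.724% of all genes, and SLIT2, PCDH15 and PCDH18 could not be counted.

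The standard errors of the fit were larger for the dimmer probe sets. The higher of the 2 day means lay above the median signal of all probe sets (60.6) for 16 of the 37 genes. For these the median standard error of the log2 difference was 0.19, against 0.43 for the other 21. Over all 37 genes it was 0.28, against 0.17 over the brightest probe sets of all 6765 genes. The shares of the 37 with an unadjusted p under 0.05 or without overlap are thus set against a background with smaller standard errors. Among genes above the median signal, 3 of the 16 (18.8%) had an unadjusted p under 0.05, against 26.0% of all such genes. The fit draws the spread of each probe set toward that of probe sets of like brightness, and this enters the standard errors. The within-day standard deviation of the log2 signals themselves had a median of 0.28 for the 16 genes and 0.35 for the 21. For 12 of the 16 brighter genes the 95% interval of the difference lay within 2-fold in both directions, and for 8 of them within 1.5-fold. Of the 21 dimmer genes 9 lay within 2-fold and 1 within 1.5-fold, so that for most of these a difference of 2-fold lay inside the interval with 3 arrays per day.

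**Figure D1:**
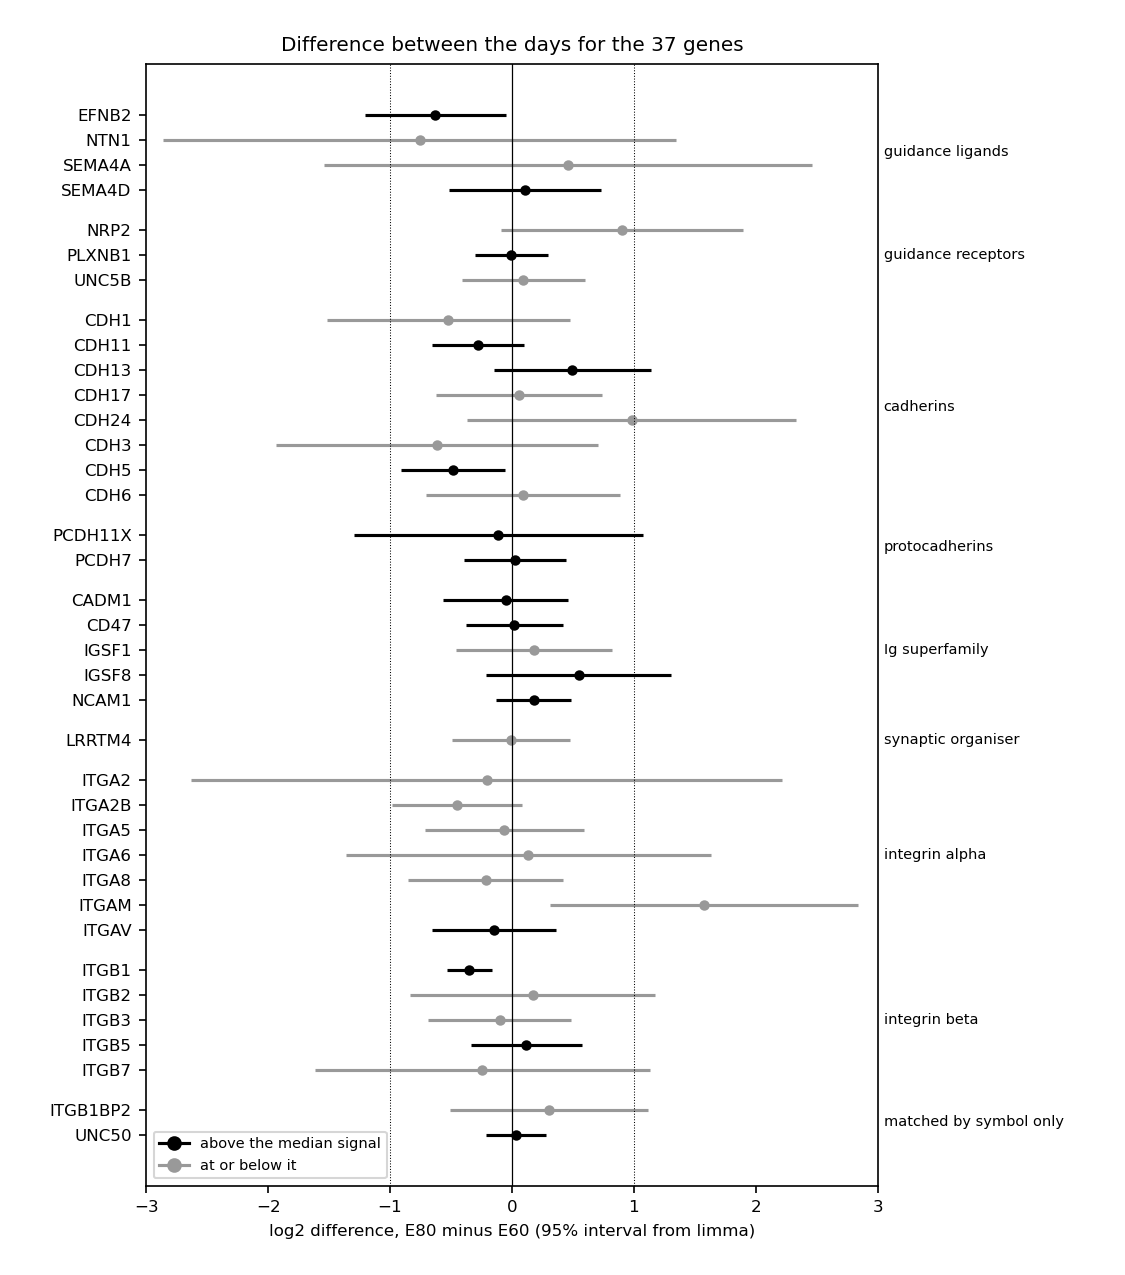
Log2 difference of E80 minus E60 (horizontal axis) for the brightest probe set of each of the 37 genes, ordered by family. Points are the difference, bars its 95% interval from limma, black genes lie above and grey genes at or below the median signal of 60.6, and dotted lines mark 2-fold. The narrow interval of ITGB1 lies below 0, at -0.54 to -0.16, and that of ITGAM is wide and lies above 0, at 0.32 to 2.84.

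Of the guidance ligands, ephrin-B2 had a lower mean at E80, with overlap between the days. EFNB2, a membrane-bound ligand of Eph receptors found on neurons and on arterial endothelium, had signals of 606, 282 and 394 at E80 and 715, 534 and 651 at E60. E80 replicates 2 and 3 lay below each array of E60, while E80 replicate 1 lay within their range. The log2 difference was -0.63 (standard error 0.25, 95% interval -1.21 to -0.05, adjusted p = 0.242 from limma). The membrane semaphorin SEMA4D had signals of 224, 114 and 250 at E80 and 192, 162 and 166 at E60, a log2 difference of 0.10 (95% interval -0.52 to 0.73, adjusted p = 0.882 from limma). At E80 its low array was replicate 2, which was also the lowest for EFNB2. Netrin-1 (NTN1), the secreted attractant and repellent of commissural axons, and SEMA4A were dim, with signals of 0.624 to 6.72 and 0.814 to 6.85 at E80, against 2.51 to 6.34 and 1.06 to 2.19 at E60, and their 95% intervals spanned more than 2-fold in both directions.

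The receptors include the partner of SEMA4D. Plexin B1 (PLXNB1), which binds SEMA4D and acts on small GTPases of the cytoskeleton, had signals of 201, 235 and 261 at E80 and 209, 242 and 247 at E60. The days overlapped almost fully, with day means of 233 at E80 and 233 at E60, and the 95% interval of the log2 difference ran from -0.30 to 0.30. UNC5B, a receptor that mediates repulsion by netrin-1, had signals of 57.3, 60.9 and 55.0 at E80 and 62.3, 63.2 and 40.0 at E60, and its interval of -0.41 to 0.60 also held 0. Neuropilin 2 (NRP2), a coreceptor of class 3 semaphorins, was 1 of the 5 genes without overlap. Its signals were 7.30, 6.16 and 9.14 at E80 and 3.32, 4.42 and 4.31 at E60, a log2 difference of 0.90 (standard error 0.43, 95% interval -0.09 to 1.89, adjusted p = 0.322 from limma). All 3 arrays of E80 lay above those of E60, though at signals far below the median of 60.6.

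Among 8 cadherins no gene passed, and the log2 difference was above 0 for 4 and below 0 for 4, with a median of -0.11. VE-cadherin (CDH5), which seals the junctions of endothelial cells, had signals of 101, 157 and 99.6 at E80 and 160, 174 and 155 at E60. Its log2 difference was -0.48 (standard error 0.19, 95% interval -0.91 to -0.05, adjusted p = 0.227 from limma). E80 replicates 1 and 3 were low, while E80 replicate 2 lay within the range of E60. On its other probe set the signals were 39.0, 71.9 and 41.2 at E80 and 69.5, 73.7 and 81.8 at E60, with the same arrays low. The 10 measured markers of endothelium and pericytes of 10 listed had summed signals of 1599 to 1911 at E80 and 1946 to 2167 at E60, none of them was at 0 and none passed. The endothelial receptor TEK had signals of 36.6, 59.6 and 38.7 at E80 and 53.6 to 61.0 at E60. The 10 measured fibroblast and meningeal markers of 12 listed summed to 1684, 2858 and 1520 on E80 replicates 1, 2 and 3, against 2353 to 3321 at E60, and the matrix protein lumican (LUM) had 90.4, 196 and 71.1, against 198 to 241. CDH5, TEK and LUM were thus low on the same pair of arrays. E80 replicate 2 was the highest array of its day for 8 of the 10 meningeal markers and for 4 of the 10 vessel markers. It was not for the other 6, such as the endothelial PECAM1 (112, 95.4 and 111 at E80, against 89.7 to 119 at E60) and the pericyte gene RGS5 (277, 225 and 207 at E80, against 223 to 233 at E60). The endothelial receptor KDR was below E60 on all 3 arrays of E80 (21.4, 21.3 and 6.52, against 35.0 to 46.8 at E60). The part of vessel or meningeal content in the value of CDH5 was not tested.

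The other brighter cadherins overlapped between the days. CDH11, a cadherin of mesenchyme and of neurons, had signals of 310, 432 and 358 at E80 and 538, 386 and 412 at E60, a log2 difference of -0.28 (95% interval -0.65 to 0.10). E80 replicate 2 was again the highest of its day. T-cadherin (CDH13), which is held to the membrane by a lipid anchor and has no cytoplasmic part, had signals of 1074, 482 and 932 at E80 and 618, 617 and 452 at E60. Its log2 difference of 0.50 (standard error 0.28, 95% interval -0.15 to 1.14, adjusted p = 0.403 from limma) rested on E80 replicates 1 and 3, while replicate 2 lay within the range of E60. E-cadherin (CDH1), the cadherin of epithelia, had 20.3, 46.7 and 36.1 at E80 and 43.2, 81.3 and 29.0 at E60. CDH24 did not overlap, at 1.85 to 2.60 on the arrays of E80 and 0.826 to 1.30 on those of E60, signals at which the 95% interval ran from -0.37 to 2.33.

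Of the protocadherins, PCDH7 had signals of 139, 149 and 96.9 at E80 and 124, 134 and 114 at E60, and its log2 difference of 0.03 (95% interval -0.39 to 0.44) was within the spread of the arrays. PCDH11X, an X-linked protocadherin of the brain, had signals of 84.4, 88.8 and 37.9 at E80 and 113, 100 and 31.6 at E60. Within each day replicate 3 was at less than 1 in 2 of the signal of the other arrays, so its within-day standard deviation of 0.87 on the log2 scale was the largest of the 16 brighter genes. On 8 of the 37 genes (21.6%), and on 15.2% of all 23999 probe sets, E80 replicate 3 and E60 replicate 3 lay both above or both below the other 4 arrays. Those 8 were IGSF8, NCAM1 and PLXNB1, with the pair above, and LRRTM4, NTN1, PCDH11X, PCDH7 and UNC5B, with the pair below. Without both replicates 3 none of the 37 genes passed in limma. Other pairs of arrays were not counted in this way. Over 11942 probe sets the deviations from the day means correlated at 0.25 between replicates 3 of both days. Between replicates 2 of both days they correlated at 0.24.

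**Figure D2:**
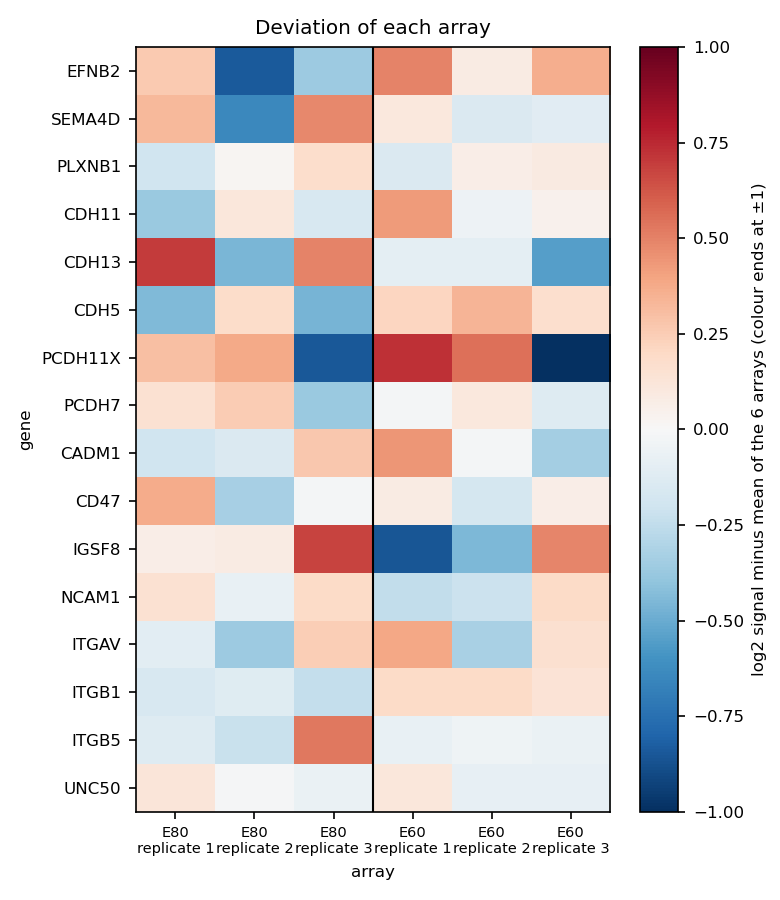
Deviation of each array (columns, 3 of E80 at the left and 3 of E60 at the right) from the mean of the 6 arrays, in log2 units, for the 16 genes above the median signal (rows). Red is above and blue below the mean, and the colours end at 1 in either direction. PCDH11X is low on replicate 3 of both days, at signals of 37.9 and 31.6, and ITGB1 is below its mean on all 3 arrays of E80.

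Of the Ig superfamily, NCAM1, the neural cell adhesion molecule of neurons and glia, was measured by 4 probe sets, more than any other of the 37 genes. On the brightest the signals were 2455, 2104 and 2527 at E80 and 1869, 1904 and 2530 at E60. E60 replicate 3 lay at the level of E80, and the log2 difference was 0.18 (standard error 0.13, 95% interval -0.13 to 0.49, adjusted p = 0.538 from limma). The 4 probe sets had differences of 0.03 to 0.18, all of them above 0 and none past the test. CADM1, a synaptic adhesion molecule, had signals of 88.9, 92.5 and 123 at E80 and 139, 101 and 80.7 at E60, a log2 difference of -0.05 (95% interval -0.57 to 0.46). IGSF8, a partner of tetraspanins, had 118, 119 and 180 at E80 and 62.4, 82.7 and 158 at E60, a log2 difference of 0.55 (standard error 0.33, 95% interval -0.22 to 1.31, adjusted p = 0.436 from limma). Replicate 3 was the highest array of IGSF8 on either day. LRRTM4, which organises excitatory synapses from the postsynaptic side, lay just under the median signal, with 66.4, 68.0 and 45.2 at E80 and 62.5, 62.7 and 53.2 at E60.

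CD47, the membrane protein that shields cells from phagocytes through their receptor SIRPA, gave different values on its 3 probe sets. The brightest had signals of 583, 358 and 445 at E80 and 476, 399 and 470 at E60, and a log2 difference of 0.02 (95% interval -0.38 to 0.42). On the second the signals were 276, 230 and 232 at E80 and 297, 306 and 336 at E60, and on the third they were 188, 160 and 149 at E80 and 236, 244 and 212 at E60. On both of these all arrays of E80 lay below those of E60. The log2 differences were -0.35 (standard error 0.11, adjusted p = 0.153 from limma) and -0.48 (standard error 0.13, adjusted p = 0.0976 from limma), and neither passed. The suffix of the third (s_at) marks probes that can also match other transcripts.

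Over the 16 genes with several probe sets, 11 had all their log2 differences on the same side of 0 and 5 did not (CD47, CDH11, ITGB1BP2, PCDH11X and PCDH7). The widest gap was that of IGSF1, an Ig protein known from the pituitary. Its brightest probe set had signals of 29.7, 38.7 and 56.7 at E80 and 38.4, 30.5 and 38.1 at E60, which overlapped. The other had 17.0, 21.5 and 26.7 at E80 and 11.9, 4.28 and 5.96 at E60, a log2 difference of 1.67 (standard error 0.45, 95% interval 0.62 to 2.71, adjusted p = 0.106 from limma). It was the only one of the 60 probe sets that met the 3-fold rule, at 3.17-fold, against 1.21% of all probe sets, and it did not pass the test.

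**Figure D3:**
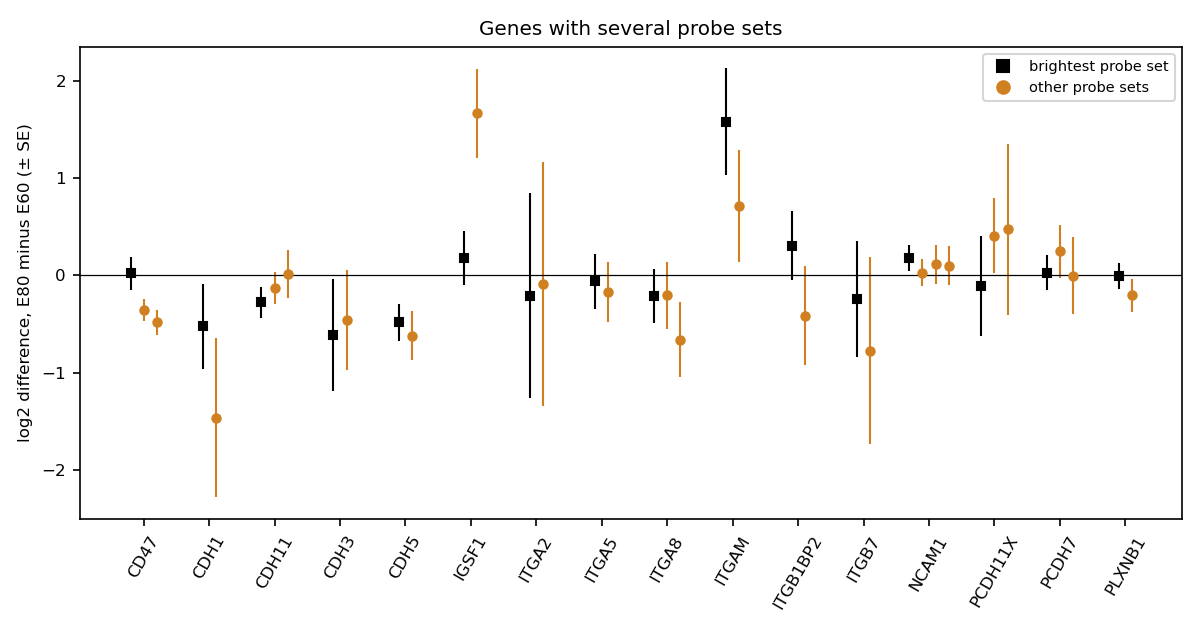
Log2 difference of E80 minus E60 (vertical axis) for each probe set of the 16 genes with several. Black squares are the brightest probe set of a gene, orange circles the others, from brighter to dimmer, and bars are ± 1 standard error. The probe sets of NCAM1 lie close together, at 0.03 to 0.18, and those of IGSF1 lie at 0.18 and 1.67.

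Among the 12 integrin chains, of which 3 lay above the median signal, 4 had a log2 difference above 0 and 8 below 0. Their median difference was -0.12. The median was -0.00046 over the brightest probe sets of all genes and -0.05 over all probe sets. ITGB1, the beta 1 chain shared by many matrix receptors, among them those that in mouse hold the endfeet of radial glia to the basement membrane of the pia, had signals of 509, 524 and 483 at E80 and 651, 651 and 628 at E60. All 3 arrays of E80 lay below those of E60, and the arrays of each day lay close together. Its mean signal was 505 ± 20.8 at E80 and 643 ± 13.4 at E60 (SD, n = 3 each), a log2 difference of -0.35 (standard error 0.08, 95% interval -0.54 to -0.16), or 0.786-fold. With an adjusted p of 0.0737 from limma it did not pass. With array weights the adjusted p was 0.0405, and over the other settings run for this gene it lay between 0.0548 and 0.243. The largest was that with equal array medians, where the log2 difference was -0.23. The 5 measured markers of 10 listed for radial glia and progenitors had a median log2 difference of -0.34, and none was at 0. Of the 5, 3 lay below E60 on all 3 arrays of E80 (VIM, HES1 and TOP2A), against 14.7% of all genes. The intermediate filament vimentin (VIM) had 1353, 1859 and 1794 at E80 and 2075, 2323 and 2050 at E60 (log2 difference -0.38, adjusted p = 0.179 from limma), and HES1 had a log2 difference of -0.34 (adjusted p = 0.287 from limma). The topoisomerase TOP2A of dividing cells passed (log2 change -1.11, adjusted p = 0.0474 from limma), but not after quantile normalization (0.0507), with equal array medians (0.0593), with 32 added to each signal (0.0552), without the intensity trend (0.174), or without any 1 array other than E80 replicate 3 (0.0839 to 0.174). SLC1A3 and FABP7 overlapped, at 0.12 and -0.03. The summed signal of the 5 was 4311 to 4873 at E80 and 5280 to 5434 at E60, and the part of these cells in the value of ITGB1 was not tested.

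The alpha V and beta 5 chains, which form a vitronectin receptor together, overlapped between the days. ITGAV had signals of 113, 94.5 and 144 at E80 and 159, 97.0 and 135 at E60 (log2 difference -0.15, 95% interval -0.66 to 0.36). ITGB5 had 114, 107 and 180 at E80 and 119, 121 and 120 at E60 (0.12, 95% interval -0.34 to 0.57), where E80 replicate 3 alone was high. ITGA2B, the alpha chain of the platelet fibrinogen receptor, had 25.6, 26.4 and 28.1 at E80 and 30.2, 42.4 and 37.7 at E60, without overlap, and a log2 difference of -0.45 (95% interval -0.98 to 0.09, adjusted p = 0.362 from limma). ITGA8 had 25.1 to 41.2 at E80 and 31.9 to 46.3 at E60 on its brightest of 3 probe sets.

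ITGAM and ITGB2 together make complement receptor 3 of microglia and other myeloid cells. ITGAM had signals of 5.35, 12.7 and 7.81 at E80 and 3.83, 1.70 and 3.04 at E60, a log2 difference of 1.58 (standard error 0.55, 95% interval 0.32 to 2.84, adjusted p = 0.183 from limma). The arrays of E80 lay above those of E60, but all 6 signals were far below the median of 60.6, and with 32 added to each signal the difference was 0.22. Its other probe set had 2.08 to 3.25 at E80 and 1.28 to 2.57 at E60, which overlapped. ITGB2 had 14.0, 23.8 and 43.1 at E80 and 28.9, 21.5 and 16.2 at E60, with E80 replicate 3 the highest. The 6 measured markers of 11 listed for microglia and blood had summed signals of 1190 to 1530 at E80 and 1167 to 1400 at E60, most of it the haemoglobin HBB, with none at 0 and none past the test. Their median log2 difference was 0.59. The myeloid adaptor TYROBP had signals of 24.0, 38.1 and 60.7 at E80 and 20.1, 9.78 and 17.4 at E60, without overlap, as for ITGAM (log2 difference 1.34, adjusted p = 0.146 from limma). The microglial genes AIF1, C1QA and C1QC had log2 differences of 0.76, 0.62 and 0.56, with overlap, and the leukocyte gene PTPRC had one of -0.93. E80 replicate 3 was the highest array of its day for 5 of the 6 markers and for ITGB2, while for ITGAM it was E80 replicate 2. The part of myeloid content in the values of ITGAM and ITGB2 was not tested.

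The remaining 9 genes (CDH3, CDH6, CDH17, ITGA2, ITGA5, ITGA6, ITGB3, ITGB7 and ITGB1BP2) had signals of 0.628 to 33.9 on all arrays. Their log2 differences lay between -0.61 and 0.30, with adjusted p of 0.627 to 0.944 from limma and overlap between the days for each. UNC50 had 279, 255 and 245 at E80 and 277, 243 and 242 at E60, and a 95% interval of -0.21 to 0.28.

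**Figure D4:**
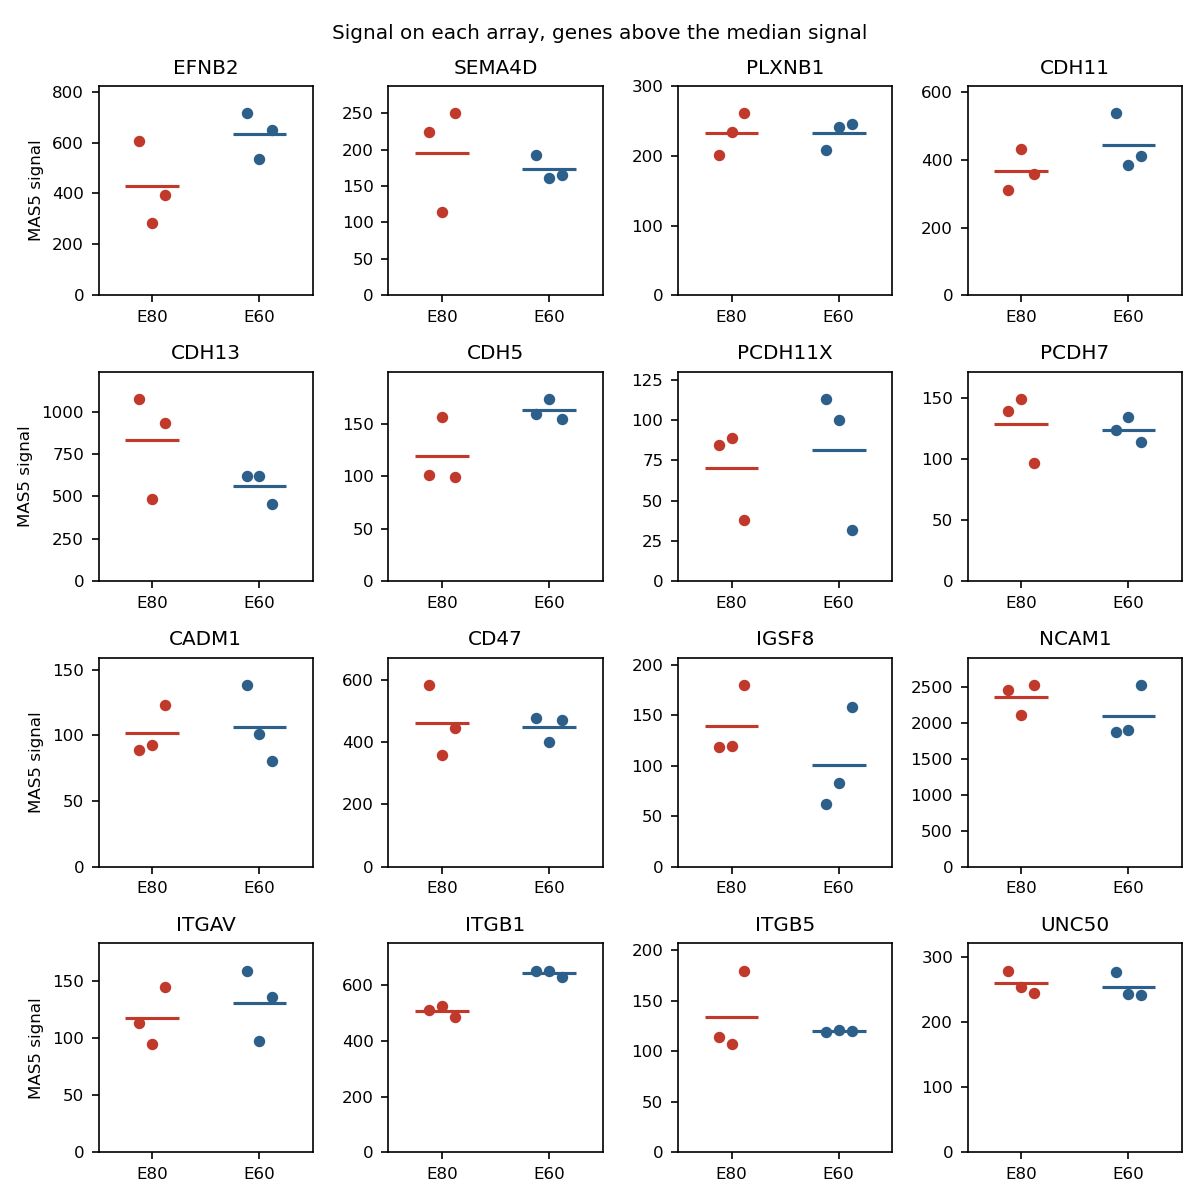
MAS5 signal (vertical axis, linear, from 0) on each array for the 16 genes above the median signal, with the 3 arrays of E80 in red at the left and the 3 of E60 in blue at the right of each panel, in the order of the replicates. Points are single arrays and bars are means. Of the 16 genes only ITGB1 shows no overlap, at 483 to 524 at E80 and 628 to 651 at E60.

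The proteins that work beside these families were read in 3 lists. Of 48 listed effectors of guidance inside the cell 16 were measured, and none passed, with a median log2 difference of 0.03. The largest rise that the study reports, that of n-chimaerin, is not covered by the effectors measured here. The growth cone protein GAP43 had signals of 3076, 3046 and 3592 at E80 and 2962, 2706 and 2756 at E60 (log2 difference 0.20, adjusted p = 0.303 from limma), and the kinase FYN 1228, 1114 and 1144 at E80 and 1104, 1099 and 1160 at E60. Of 35 listed proteins of cadherin and integrin junctions, mostly adaptors, 14 were measured and none passed (median -0.12). Of the 14, 4 lay below E60 on all 3 arrays of E80 (NECTIN1, VCL, LIMS1 and FLNA), against 14.7% of all genes. None of the 14 lay above E60 on all 3. The atrophin interacting protein that the study reports as raised is not among the junction proteins measured here. Beta-catenin (CTNNB1), which binds the tail of classical cadherins, had 1575, 1678 and 1626 at E80 and 1666, 1632 and 1697 at E60. Vinculin (VCL), which couples junctions to actin, had 157, 181 and 143 at E80 and 226, 215 and 193 at E60, without overlap (-0.40, adjusted p = 0.153 from limma).

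Of 33 listed other cues and receptors 9 were measured, and 1 rose and 1 fell, against 1.49% and 1.05% of all genes. OMG, the oligodendrocyte-myelin glycoprotein that stops growth cones through the Nogo receptor, rose to signals of 122, 102 and 139 at E80, against 53.1, 40.8 and 47.8 at E60 (log2 change 1.35, standard error 0.18, adjusted p = 0.0175 from limma). CXCR4, the chemokine receptor that guides migrating interneurons, fell to 308, 272 and 319 at E80, against 447, 543 and 492 at E60 (log2 change -0.72, standard error 0.11, adjusted p = 0.0240 from limma). Both calls were lost without the intensity trend of the fit (limma's adjusted p = 0.125 for OMG and 0.143 for CXCR4) and without E60 replicate 1, E60 replicate 2 or E80 replicate 1 (0.0757 to 0.0916 for OMG and 0.0757 to 0.117 for CXCR4), and also without both replicates 3 (0.0609 for OMG and 0.0662 for CXCR4). That of CXCR4 was also lost without E60 replicate 3 (0.0525) and with equal array medians (0.0557), while the direction of both stayed the same. The 7 measured markers of 10 listed for the oligodendrocyte lineage had a median log2 difference of 0.37, with none past the test and none at 0, and summed to 991 to 1743 at E80, against 784 to 973 at E60. Of the 7, 3 lay above E60 on all 3 arrays of E80, as OMG did, against 12.8% of all genes. These were MBP (1.71), OPALIN (2.20) and OLIG2 (0.64), while OLIG1 (0.37), MAG (0.04), SOX10 (-0.02) and CNP (-0.22) overlapped. MBP had signals of 162, 68.3 and 466 at E80, against 42.6 to 64.7 at E60, with E80 replicate 3 the highest. OPALIN, MAG, SOX10 and CNP lay below the median signal of all probe sets. The signals of OPALIN were 5.77 to 18.1 at E80 and 1.16 to 3.31 at E60. The part of the oligodendrocyte lineage in the value of OMG was not tested. CXCL12, the ligand of CXCR4, had signals of 70.4, 218 and 49.6 at E80 and 177, 134 and 176 at E60, with the same pair of arrays low at E80 as for CDH5 and LUM, and did not pass (adjusted p = 0.415 from limma). The netrin receptor NEO1 had 1132, 1132 and 798 at E80 and 817, 950 and 1051 at E60.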

How the data were processed

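MAS5 signals were deposited by the authors as intensity on the linear scale, with a value for each probe set of an array and a single scaling factor per array. Neither the MAS5 version nor detection calls could be used, as the sources do not give them. After removal of the 124 AFFX control probe sets from 24123, 23999 were tested, among them 64 reporter (RPTR) probe sets. Symbols were those of the platform annotation, in which 10069 of them have 1 symbol, 198 several and 13732 none. All 37 genes have the same symbol in RefSeq. As the files name no genome build, no coordinates are given.

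Signals were log2-transformed without pseudocount and E80 was compared with E60 in limma 3.58.1 (R 4.3.3; lmFit, then eBayes with trend, no covariates). The Benjamini-Hochberg threshold was 0.05, and differences are E80 minus E60. The fit was first tried on simulated data. The study names no test. P-values rest on the spread between these embryos, which eBayes draws toward the spread of probe sets of like intensity. The number of arrays limits the precision.

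The members, lists and tests were chosen with earlier results of these data known. Genes were named by the rule of the 10 largest differences in each direction among those above the median signal, and the 2 smallest p of each family. CDH1, CDH24, IGSF1, ITGA2B, ITGA8, ITGB2, the genes given only as a range, the list genes that did not pass and EIF1AY lie outside it and were chosen after their values were seen. Alternatives were quantile normalization, equal array medians, a pseudocount of 32, a filter keeping the brightest 66%, omission of each array, eBayes without trend or robust, array weights, and the mean over a gene's probe sets. Omission of both replicates 3, and array weights for single genes, were chosen after seeing the data.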

Additional observations from a re-analysis of the deposited data

How the results depend on the processing

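None of the 37 genes passed under any setting run, except ITGB1 with array weights (1 gene, lower at E80). Of all probe sets tested, 224 rose and 243 fell as reported. These counts were 311 and 108 with equal array medians, 353 and 410 among the brightest 66%, 520 and 649 with array weights, and 107 and 87 without both replicates 3. Without the intensity trend they were 0 and 0 in limma, with 3706 probe sets at an unadjusted p under 0.05. With 1 array left out they ranged from 0 to 178 and from 1 to 189, with 0 and 1 without E60 replicate 1, without E60 replicate 2 or without E80 replicate 1 (3133 to 3299 probe sets at an unadjusted p under 0.05). The causes were not tested. The 3-fold rule was met by 1 gene, ITGAM, after quantile normalization and with equal medians, and by 0 to 1 with an array left out (ITGAM without E60 replicate 1 or 3, or E80 replicate 1 or 3). Its log2 difference as reported lies just under the threshold. Of 28 genes with single values, 12 kept the sign of their difference under every setting run and 16 did not, none of them past the test. After quantile normalization CADM1 was at 0.034, LRRTM4 at 0.10 and PLXNB1 at 0.042, and with equal medians CADM1 was at 0.064, LRRTM4 at 0.11, PLXNB1 at 0.11 and PCDH11X at 0.0037. With array weights ITGB2 was at -0.074 and UNC5B at -0.017. Without both replicates 3 IGSF1 was at -0.013, ITGB2 at -0.45, ITGB5 at -0.12, LRRTM4 at 0.10, SEMA4D at -0.14 and UNC5B at -0.088. With 1 array left out the difference ranged from -0.23 to 0.16 for CADM1, -0.16 to 0.19 for CD47, -0.065 to 0.40 for IGSF1, -0.38 to 0.018 for ITGA8, -0.35 to 0.0092 for ITGAV, -0.24 to 0.57 for ITGB2, -0.12 to 0.26 for ITGB5, -0.11 to 0.18 for LRRTM4, -1.44 to 0.28 for NTN1, -0.70 to 0.29 for PCDH11X, -0.093 to 0.22 for PCDH7, -0.093 to 0.096 for PLXNB1, -0.43 to 1.11 for SEMA4A, -0.11 to 0.45 for SEMA4D, -0.022 to 0.097 for UNC50 and -0.12 to 0.21 for UNC5B. No paired analysis was possible because the labels give the arrays no number or litter shared between the days. Numbers 1 to 3 follow the order of deposit, and over 11942 probe sets the deviations of same-numbered arrays from their day means correlated at 0.10 to 0.25, and those of the other pairs at -0.30 to 0.07. The number of arrays and, for the 21 dimmer genes, the low signal limit the precision.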

Other observations

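EIF1AY, a Y-linked gene, had signals of 121, 5.42 and 155 at E80 and 196, 187 and 0.394 at E60, so it was low on E80 replicate 2 and E60 replicate 3. The X-linked PCDH11X was also low on E60 replicate 3, but at E80 it was low on replicate 3 and not on replicate 2, and the X-linked IGSF1 lay between the other arrays of its day on both of them, on either probe set.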
